A study of Mus musculus with 10 samples.

Results

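The genes of glucose breakdown and glycogen storage were followed in 10 single Bergmann glial cells of the mouse cerebellum, 5 taken at postnatal day 30 (P30) and 5 at postnatal day 6 (P6). A list of 32 genes was used, with 16 of glycolysis, 8 of the steps that decide the fate of pyruvate and 8 of glycogen. A gene was measured where at least 1 probe set with a value in every cell was assigned to it and to no other gene, which gave 30 members with 71 probe sets, out of 17919 genes measured in all. Glycolysis kept 14 members, and all 8 of the pyruvate list and all 8 of the glycogen list were kept. Gpi1 (glucose-6-phosphate isomerase) and Eno1 (enolase) were not matched to a probe set and were not analysed here.

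All cells of both ages came from GFAP-GFP reporter mice, in which the promoter of the glial gene Gfap drives green fluorescent protein. Slices were cut from the mid-sagittal cerebellum, dissociated, and single cells were picked by their fluorescence and shape. The cDNA of each cell was primed at the poly(A) tail, amplified by PCR and hybridised to 1 Affymetrix mouse genome array, so that the signal comes mostly from the 3′ ends of messages. The labels name no animal for any cell. Each age was therefore 1 sample, no test between the ages was possible, and the ranges and SDs below describe cells and not animals.

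The deposited values are ratios, so a value says how a cell stood for a gene relative to other cells and not how abundant the message was. They are given below as log2 ratios, averaged over the probe sets of a gene, and the difference between the ages is the mean of the P30 cells minus the mean of the P6 cells. The median ratio of the P6 cells was 1 in 69.5% of the complete probe sets, so a log2 ratio of 0 stands near the middle of the P6 cells for most genes. A size rule of 3-fold (1.58 on the log2 scale) was used in place of a test.

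Astroglia take up glucose from the capillaries and split it by glycolysis into pyruvate. Lactate dehydrogenase turns pyruvate into lactate, which can leave the cell. Pyruvate carboxylase, in brain a largely astroglial enzyme, uses it to replenish the citric acid cycle. The pyruvate dehydrogenase complex, inside the mitochondria, turns pyruvate into acetyl-CoA. The pyruvate dehydrogenase kinases switch the complex off. Astroglia also hold most of the glycogen of the brain, built from UDP-glucose by glycogen synthase and the branching enzyme and broken down by glycogen phosphorylase, which phosphorylase kinase turns on.

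The cells were checked against markers of their own and of other cell types. Of 12 astroglial markers all were measured and none was at the floor of 0.01, the lowest ratio used, in every cell. The same held for the measured markers of the other cell types, so this does not tell cell types apart. The ratios cannot give the level of a marker. The median over the 12 astroglial markers ran from -0.40 to 0.58 in P30 cells and from -0.35 to 0.24 in P6 cells. P30 cell 5 stood apart, with a median of 3.98 over 9 endothelial and pericyte markers, against -0.90 to 0.13 in the other P30 cells and -0.36 to 0.00 in the P6 cells, and it also held the highest Purkinje and granule neuron medians of its age (2.55 and 1.17). Over 7 oligodendrocyte markers the median difference between the ages was 1.27, with 2 over 3-fold higher at P30, and cell medians ran from -0.43 to 0.98 at P30 and from -0.63 to 0.00 at P6. Over the 4 Purkinje markers it was 0.81, with 1 over 3-fold higher at P30. The part of these markers in the values of the members was not tested beyond leaving out cells.

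P30 cells carried higher ratios than P6 cells for Aldoc, Pygm, Hk2 and Phka1, and a lower one for Pdk1, and the remaining 25 measured members differed by less than 3-fold. These 4 of 30 members over 3-fold higher at P30 stand beside 4.93% of all genes past the same rule, and the 1 of 30 over 3-fold higher at P6 stands beside 9.39%, so that 5 of 30 members were past the rule in either direction beside 14.3% of all genes. In no member did all cells of one age lie apart from all cells of the other, which held for 1.41% of all genes with P30 on top and 2.13% with P6 on top (3.54% in either direction). Of the 71 probe sets of the members 7 were over 3-fold higher at P30, against 6.6% of all complete probe sets, and 2 were over 3-fold higher at P6, against 11.1%. Among the 33964 complete probe sets of exactly 1 gene, as those of the members are, the counts were 2346 and 4177. No probe set of a member kept the cells of the ages apart. This held for 1.2% of complete probe sets with P30 on top and 1.79% with P6 on top, and for 411 and 667 of the 33964. The mean was higher at P30 in 23 of 30 members (76.7%), against 47.6% of all genes. That last count moved with the scaling of the arrays, and so did the share of all genes. After centring each array on its median it was 26 of 30 members beside 54.6% of all genes, and after scaling each array to its hybridisation spikes 13 of 30 beside 33.4%. Without cell 5 of both ages, Hk2, Aldoc, Pygm and Phka1 were still the 4 members over 3-fold higher at P30, beside 5.84% of all genes. Pdk1 was still the 1 over 3-fold higher at P6, beside 10.5%.

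The median difference was 0.22 for the 14 glycolysis members, with 11 higher at P30, 0.19 for the 8 pyruvate members, with 6 higher at P30, and 0.57 for the 8 glycogen members, with 6 higher at P30. The median over all genes was -0.05, and it was -0.35 after spike scaling, where the step medians were -0.07 for glycolysis, -0.11 for pyruvate fate and 0.27 for glycogen. The steps also differed in how far cells of an age scattered. The median SD of cells within an age was 0.73 for glycolysis, 0.95 for pyruvate fate and 1.53 for glycogen, beside 1.04 for all genes. Taken over single probe sets instead of genes, it was 0.55, 0.95 and 1.26 in the same order. All complete probe sets of exactly 1 gene gave 1.25, so glycogen stood near them by that measure.

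**Figure D1:**
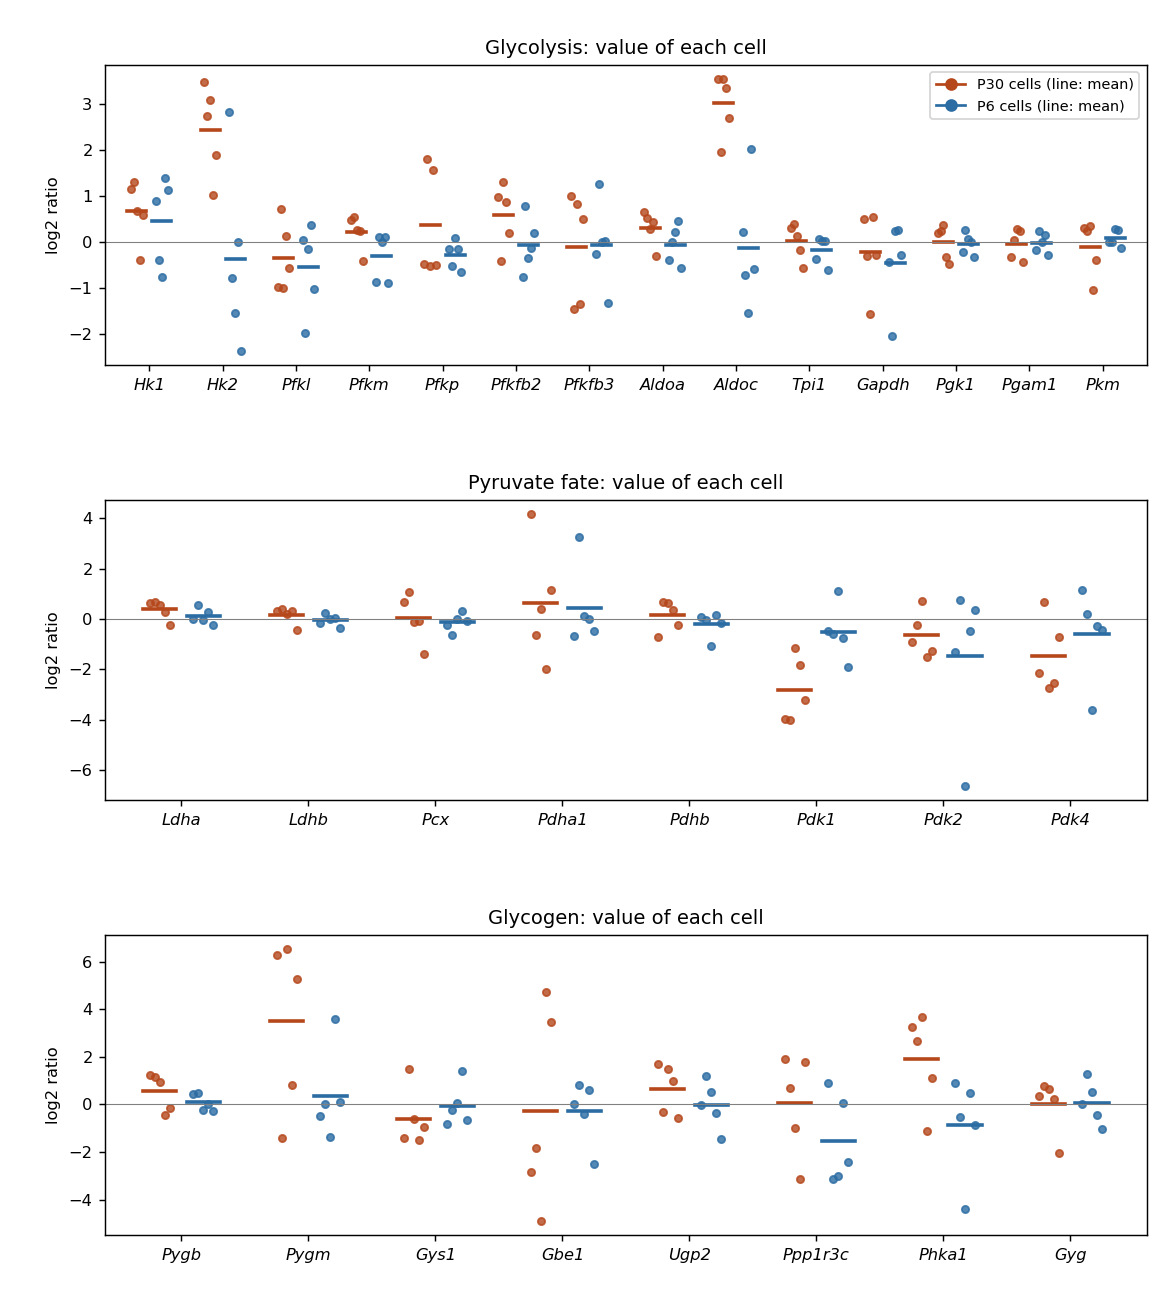
Log2 ratio (vertical axis) of each measured member in each cell, with P30 cells in orange to the left of P6 cells in blue and a line at the mean of each age, in separate panels for glycolysis, pyruvate fate and glycogen. Aldoc and Hk2 stand out at P30 in the first panel, Pdk1 lies low at P30 in the second, and the glycogen genes of the third scatter most.

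Promoter sequences are shown for the 5 members past the size rule, since these carry the differences described below, and for Ldha, whose window held the most matches among these 6 genes. Each is the 250 bases before the start of the gene in the RefSeq annotation of mouse build GRCm38.p6, written 5′ to 3′ on the strand of the gene. Hk2 lies on the minus strand with its window at chr6:82774455-82774704. The Aldoc window is chr11:78322823-78323072 on the plus strand, and that of Ldha is chr7:46845554-46845803 on the plus strand. Pdk1 has its window at chr2:71872974-71873223 on the plus strand, Pygm at chr19:6384158-6384407 on the plus strand, and Phka1 at chrX:102644247-102644496 on the minus strand. Capitals mark ACGTG or its reverse complement CACGT, a form of the core of the site that hypoxia-inducible factors bind. It is also contained in the E-box CACGTG, where the same letters match on both strands. The form of this core with G in the first place (GCGTG) was not searched.
Hk2: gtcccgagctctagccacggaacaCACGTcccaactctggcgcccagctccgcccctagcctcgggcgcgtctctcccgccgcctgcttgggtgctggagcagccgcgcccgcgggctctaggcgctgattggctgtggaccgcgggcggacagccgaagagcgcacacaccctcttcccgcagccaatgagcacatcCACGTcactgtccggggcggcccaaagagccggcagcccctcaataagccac
Aldoc: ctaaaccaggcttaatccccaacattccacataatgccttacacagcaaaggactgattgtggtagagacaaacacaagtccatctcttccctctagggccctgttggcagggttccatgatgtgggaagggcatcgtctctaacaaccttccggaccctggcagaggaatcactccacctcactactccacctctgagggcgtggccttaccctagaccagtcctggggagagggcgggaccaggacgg
Ldha: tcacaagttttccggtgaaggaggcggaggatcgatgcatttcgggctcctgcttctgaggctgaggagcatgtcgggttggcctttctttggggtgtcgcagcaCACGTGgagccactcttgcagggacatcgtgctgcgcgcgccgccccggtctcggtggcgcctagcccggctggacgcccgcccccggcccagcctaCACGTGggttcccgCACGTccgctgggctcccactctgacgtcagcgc
Pdk1: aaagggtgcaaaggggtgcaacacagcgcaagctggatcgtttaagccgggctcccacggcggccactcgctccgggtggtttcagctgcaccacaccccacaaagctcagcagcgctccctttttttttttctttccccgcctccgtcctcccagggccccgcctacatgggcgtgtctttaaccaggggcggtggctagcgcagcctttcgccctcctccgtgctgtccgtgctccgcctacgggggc
Pygm: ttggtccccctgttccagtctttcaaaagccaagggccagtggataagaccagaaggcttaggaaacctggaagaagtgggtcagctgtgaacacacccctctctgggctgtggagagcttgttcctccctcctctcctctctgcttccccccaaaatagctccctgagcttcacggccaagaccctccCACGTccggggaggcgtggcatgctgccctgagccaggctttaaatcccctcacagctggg
Phka1: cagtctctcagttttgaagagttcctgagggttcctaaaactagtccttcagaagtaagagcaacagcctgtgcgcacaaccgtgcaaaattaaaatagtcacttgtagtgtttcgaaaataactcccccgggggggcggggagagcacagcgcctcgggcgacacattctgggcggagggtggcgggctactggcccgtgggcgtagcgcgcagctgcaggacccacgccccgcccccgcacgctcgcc
Hk2 held 2 matches, Pygm 1 and Ldha 5, of which 4 fall in 2 E-boxes, whereas Aldoc, Pdk1 and Phka1 held none of the searched form. This does not mean that their windows lack the form that was not searched. For Aldoc, Pdk1 and Ldha the annotation lists 2 starts and 1 is shown. The second window of Ldha held no match, nor did those of Aldoc and Pdk1. Of all 32851 promoter windows of this length 16.6% held the motif, and of the 50 windows of the 32 listed genes 20 did (40.0%). A match is a run of letters and was not tested as a binding site.

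The entry of glucose into glycolysis is the work of the hexokinases. Hk2, the inducible hexokinase, read 3.49, 2.74, 3.08, 1.03 and 1.90 in P30 cells 1 to 5, against 2.83, -0.78, -1.53, 0.00 and -2.37 in P6 cells 1 to 5. All P30 cells lay above 4 of the P6 cells, and P6 cell 1 lay within the P30 range. The mean was 2.45 ± 0.99 at P30 and -0.37 ± 1.99 at P6 (SD over 5 cells each), a difference of 2.82 or 7.07-fold, from 1 probe set. Without P6 cell 1 it was 3.62 (12.3-fold), and with ratios of arithmetic means it was 1.80 (3.49-fold). Hk1, the hexokinase that most brain cells use, read 1.16, 1.30, 0.68, -0.38 and 0.59 in P30 cells 1 to 5, against 0.89, -0.39, -0.76, 1.39 and 1.13 in P6 cells 1 to 5. It averaged 0.67 ± 0.66 at P30 and 0.45 ± 0.96 at P6, a difference of 0.22, with fully interleaved cells. Within each cell, Hk2 minus Hk1 ran between 1.31 and 2.41 at P30 and between -3.50 and 1.94 at P6. This contrast does not depend on how an array was scaled, and its mean differed by 2.60 between the ages.

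Phosphofructokinase commits sugar to glycolysis, and its 3 subunits differed by less than 3-fold between the ages. Pfkm, the muscle-type subunit, read 0.49, 0.54, 0.26, 0.24 and -0.40 in P30 cells 1 to 5, against -0.88, 0.12, 0.00, 0.10 and -0.89 in P6 cells 1 to 5. Here 4 of the 5 P30 cells lay above every P6 cell, and P30 cell 5 was the exception, so that without it all P30 cells were above all P6 cells. The difference was 0.53, or 1.45-fold. Pfkl, the liver-type subunit, differed by 0.21, and Pfkp, the platelet-type subunit, by 0.66. The Pfkp value came from P30 cells 2 and 4, at 1.81 and 1.58. The other 3 P30 cells lay between -0.52 and -0.48, inside the P6 range of -0.66 to 0.09. The Pfkp probe sets disagreed, with differences of 1.41 for 1416069_at, 0.80 for 1437759_at and -0.25 for 1430634_a_at. In P30 cells 2 and 4 the probe set 1416069_at read 6.12 and 4.54.

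Pfkfb2 and Pfkfb3 make and remove fructose 2,6-bisphosphate, the activator of phosphofructokinase. Pfkfb2 averaged 0.59 ± 0.69 at P30 and -0.05 ± 0.58 at P6, a difference of 0.65. Its 4 probe sets gave differences between -0.33 and 1.40. Pfkfb3, whose product is known to favour the activator, averaged -0.09 ± 1.21 at P30 and -0.06 ± 0.92 at P6. Its 2 probe sets ran opposite ways, with a difference of -1.23 for 1416432_at and 1.16 for 1456676_a_at, so the gene value of -0.04 is the average of unlike readings.

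Aldolase splits the hexose into trioses, and aldolase C is the form typical of brain. Aldoc read 3.55, 1.96, 3.56, 3.35 and 2.70 in P30 cells 1 to 5, against 0.22, -0.71, -1.54, 2.03 and -0.57 in P6 cells 1 to 5. Of the P30 cells 4 lay above all P6 cells, and P30 cell 2 fell just under P6 cell 4. Means were 3.02 ± 0.69 at P30 and -0.12 ± 1.35 at P6, a difference of 3.14 or 8.80-fold, the largest among the members. Leaving out any 1 cell kept the difference between 2.78 and 3.67.

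Its 2 probe sets measured this very unevenly. The probe set 1424714_at read 6.51, 3.26, 6.58, 6.20 and 5.58 in P30 cells 1 to 5, against 0.44, -1.88, -2.99, 3.85 and -0.64 in P6 cells 1 to 5, a difference of 5.87. The probe set 1451461_a_at read 0.59, 0.66, 0.53, 0.50 and -0.19 in P30 cells 1 to 5, against 0.00, 0.45, -0.09, 0.21 and -0.51 in P6 cells 1 to 5, a difference of 0.40. Both were higher on average at P30, and the size of the change in Aldoc therefore depends on the probe set read.

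Aldoa, the muscle-type aldolase, read 0.65, 0.52, 0.28, 0.43 and -0.30 in P30 cells 1 to 5, against -0.39, 0.00, 0.22, 0.46 and -0.57 in P6 cells 1 to 5. It averaged 0.32 ± 0.37 at P30 and -0.05 ± 0.42 at P6, and its 5 probe sets gave differences between 0.33 and 0.43. Aldoc minus Aldoa within a cell was 2.90, 1.44, 3.28, 2.92 and 3.00 in P30 cells 1 to 5, against 0.61, -0.71, -1.75, 1.57 and -0.01 in P6 cells 1 to 5. Relative to Aldoa, Aldoc was thus higher in 4 of 5 P30 cells than in any P6 cell, and the exception was P30 cell 2. In the cerebellum Aldoc is also known as zebrin II, a protein of Purkinje neurons. The median over 4 Purkinje markers was -0.82, -0.79 and -0.41 in P30 cells 1, 3 and 4, where Aldoc was highest, 0.15 in P30 cell 2, where it was lowest, and 2.55 in P30 cell 5. In P6 cells it ran from -1.07 to 0.95. Whether Purkinje RNA had a part in the Aldoc values was not tested.

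**Figure D2:**
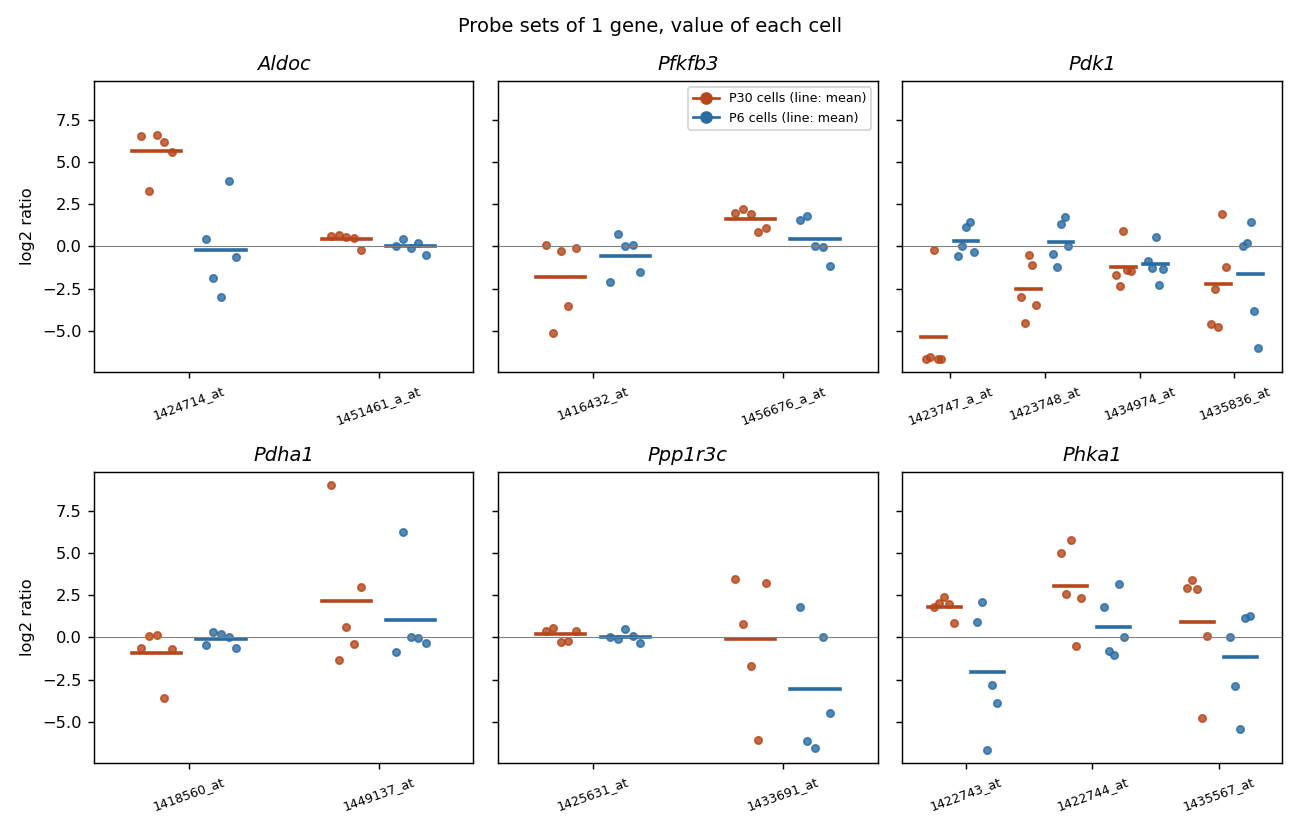
Log2 ratio (vertical axis) of each cell for every probe set (horizontal axis, manufacturer's identifier) of 6 members whose probe sets differ or whose difference is large, P30 cells in orange left of P6 cells in blue, with lines at the means. For Aldoc, 1424714_at carries a difference of 5.87 and 1451461_a_at one of 0.40, and for Pdk1 the differences run between -5.67 and -0.15.

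The later steps of the pathway, which turn trioses into pyruvate and yield the ATP, stood nearly level between the ages. Tpi1 (triosephosphate isomerase) differed by 0.19, Pgk1 (phosphoglycerate kinase) by 0.04, Pgam1 (phosphoglycerate mutase) by -0.02 and Pkm (pyruvate kinase) by -0.19. Gapdh, the dehydrogenase between them, differed by 0.23. Only its control probe sets along the message could be used, since the other 3 are shared with further genes. The 3′ and middle ones gave 0.14 and 0.10, with SDs of at most 0.35 in either age, whereas the 5′ one gave 0.46 with SDs of 2.50 at P30 and 3.01 at P6.

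Pyruvate can next be reduced to lactate. Ldha, the subunit of the muscle-type enzyme, read 0.65, 0.68, 0.58, 0.29 and -0.23 in P30 cells 1 to 5, against 0.00, 0.56, -0.04, 0.28 and -0.25 in P6 cells 1 to 5. Ldhb, the heart-type subunit, read 0.34, 0.39, 0.22, 0.31 and -0.45 in P30 cells 1 to 5, against -0.14, 0.25, 0.00, 0.03 and -0.37 in P6 cells 1 to 5. In both genes the cells of the ages overlapped, and the differences were 0.28 for Ldha and 0.21 for Ldhb. Ldhb minus Ldha within a cell stayed between -0.36 and 0.01 at P30 and between -0.31 and 0.04 at P6, the narrowest of the 11 enzyme contrasts computed, and its mean differed by -0.08 between the ages.

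These readings belong to a group of 8 members whose cells scattered by an SD under 0.5 within an age, namely Pfkm, Aldoa, Tpi1, Pgk1, Pgam1, Pkm, Ldha and Ldhb. Of all genes 9.45% were as steady. Pgam1 (SD 0.28) and Ldhb (SD 0.29) were the steadiest members, and only 0.486% and 0.726% of all genes had a smaller SD. Their differences ran from -0.19 to 0.53 with a median of 0.20, which is smaller than the shift of -0.30 that spike scaling gave to the median of all genes, and no direction is given for them.

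The steady genes moved together from cell to cell. P6 cell 5 was the lowest P6 cell in all 8, and P30 cell 5 the lowest P30 cell in 7, the exception being Pkm, where P30 cell 4 was lowest at -1.03. The bacterial and phage hybridisation spikes, which are added after the cDNA is made and belong to no cell, were low in the same arrays. Their median over 9 probe sets was -0.39 in P30 cell 5, against 0.32 to 0.49 in the other P30 cells, and -0.48 in P6 cell 5, against -0.03 to 0.17 in the other P6 cells. The median SD of the 8 genes was 0.35 as deposited, 0.22 scaled to the spikes, 0.26 with median-centred arrays and 0.25 without cell 5 of both ages. What lowered these arrays was not tested.

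**Figure D3:**
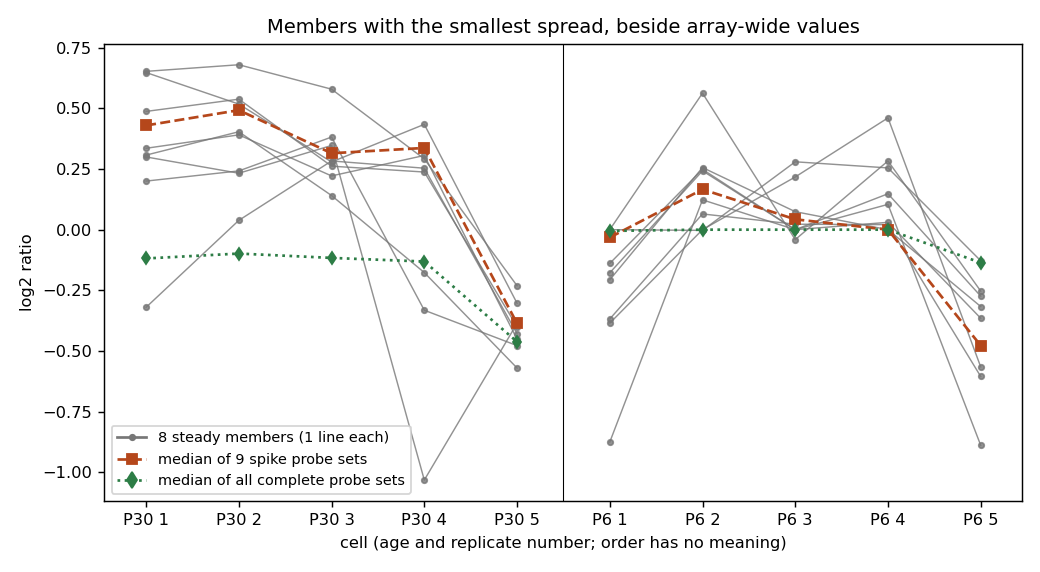
Log2 ratio (vertical axis) of the 8 steadiest members in every cell (grey lines, which join cells only to guide the eye), with the median of 9 hybridisation spike probe sets (orange squares) and the median of all complete probe sets (green diamonds). Cell 5 of each age is low in the steady members and in the spikes alike.

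The control of pyruvate dehydrogenase gave the 1 member over 3-fold higher at P6. Pdk1, a kinase that switches pyruvate dehydrogenase off, read -3.98, -3.99, -1.15, -1.81 and -3.21 in P30 cells 1 to 5, against -0.47, -0.58, 1.11, -0.73 and -1.92 in P6 cells 1 to 5. P30 cells 1, 2 and 5 lay below every P6 cell, while P30 cells 3 and 4 lay above P6 cell 5. Means were -2.83 ± 1.29 at P30 and -0.52 ± 1.08 at P6, a difference of -2.31. Because 3 of the P30 readings stood at the floor of 0.01, to which lower values were set, the ratio of 4.96-fold depends on that floor. With a floor of 0.1 the difference was -1.60, without P6 cell 3 it was -1.90, and with ratios of arithmetic means it was -1.41, inside the size rule. All 4 of its probe sets were lower at P30, by -5.67 (1423747_a_at), -2.82 (1423748_at), -0.60 (1435836_at) and -0.15 (1434974_at), so 2 of the 4 carried nearly the whole difference.

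The other kinases did not follow Pdk1 past the size rule. Pdk4, the starvation-induced kinase of muscle and heart, read -2.16, 0.69, -2.72, -2.54 and -0.70 in P30 cells 1 to 5, against 1.15, 0.22, -3.60, -0.26 and -0.43 in P6 cells 1 to 5, a difference of -0.90. Pdk2, the widely used form, read -0.93, -0.25, 0.73, -1.51 and -1.27 in P30 cells 1 to 5, against -1.31, 0.75, -6.64, -0.49 and 0.36 in P6 cells 1 to 5, a difference of 0.82. That value rested on P6 cell 3, which stood at the floor of 0.01, and without it the difference was -0.47. Pdk2 minus Pdk1 within a cell averaged 2.18 ± 1.31 at P30 and -0.95 ± 3.98 at P6, with overlapping cells.

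The complex itself and the carboxylase showed small differences. Pdha1, the catalytic alpha subunit of pyruvate dehydrogenase, differed by 0.17, but its 2 probe sets ran opposite ways (-0.84 for 1418560_at and 1.18 for 1449137_at), and 1449137_at stood highest in P30 cell 1 (9.0) and P6 cell 2 (6.2). Pdhb, the beta subunit, differed by 0.35, with 0.30 and 0.40 from its 2 probe sets. Pcx, pyruvate carboxylase, averaged 0.03 ± 0.94 at P30 and -0.12 ± 0.35 at P6, a difference of 0.15. Its probe set outside the control set gave 0.18, the 3′ control gave 0.23 and the 5′ control 0.80, while the 2 middle controls gave -0.19 and -0.26.

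Among the steps, the genes of glycogen held the widest scatter. Pygm, the muscle-type glycogen phosphorylase, which astroglia also use, read 6.27, -1.40, 6.55, 0.81 and 5.25 in P30 cells 1 to 5, against -0.47, 0.00, -1.39, 3.58 and 0.10 in P6 cells 1 to 5. P30 cells 1, 3 and 5 were above every P6 cell, P30 cell 4 stood within the P6 range, and P30 cell 2 lay just under the lowest P6 cell. Means were 3.50 ± 3.58 at P30 and 0.36 ± 1.89 at P6, a difference of 3.13 or 8.76-fold, from 1 probe set. Among all genes 97.4% had a smaller SD than Pygm. Without P30 cell 3 the difference was 2.37, and without P30 cell 2 it was 4.35.

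Pygb, the brain-type phosphorylase, read 1.24, 1.16, 0.92, -0.46 and -0.13 in P30 cells 1 to 5, against 0.43, 0.50, -0.23, 0.00 and -0.29 in P6 cells 1 to 5. It averaged 0.55 ± 0.79 at P30 and 0.08 ± 0.37 at P6, a difference of 0.47. Pygm minus Pygb within a cell was 5.04, -2.56, 5.62, 1.27 and 5.38 in P30 cells 1 to 5, against -0.90, -0.50, -1.16, 3.58 and 0.39 in P6 cells 1 to 5. Relative to Pygb, Pygm was thus higher in 3 of the 5 P30 cells than in any P6 cell, and P6 cell 4 exceeded the other 2.

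Phka1, the muscle-type alpha subunit of phosphorylase kinase, read 3.24, 2.66, 3.67, -1.11 and 1.09 in P30 cells 1 to 5, against 0.89, -0.51, -4.38, 0.50 and -0.87 in P6 cells 1 to 5. All P30 cells but cell 4 were above every P6 cell. Means were 1.91 ± 1.95 at P30 and -0.88 ± 2.09 at P6, a difference of 2.79. This 6.90-fold rests in part on P6 cell 3, with 1 reading at the floor of 0.01. With a floor of 0.1 the difference was 2.48, without P6 cell 3 it was 1.91, and without P30 cell 4 it was 3.54. Its 3 probe sets gave 3.88, 2.41 and 2.07. P30 cell 4 held the lowest Phka1 value of that age and, of the 5, the next to lowest Pygm value.

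Ppp1r3c, which tethers protein phosphatase to glycogen and so favours its synthesis, lay at the edge of the size rule. It read 1.91, 0.67, -0.98, -3.13 and 1.80 in P30 cells 1 to 5, against 0.91, -3.13, -3.03, 0.05 and -2.43 in P6 cells 1 to 5. The difference was 1.58 or 2.99-fold. Cells of the ages overlapped, with P30 cells 1 and 5 above every P6 cell and P30 cell 4 level with the lowest P6 cell. With 1 cell left out the difference ran from 1.11 to 2.37, and it passed the rule without P30 cell 3, P30 cell 4, P6 cell 1 or P6 cell 4, and with median-centred arrays (1.73) or medians over cells (3.10). Its probe sets gave 0.15 (1425631_at) and 3.01 (1433691_at).

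The enzymes that build glycogen stayed inside the size rule. Gys1, the muscle-type glycogen synthase, read -1.43, 1.47, -0.63, -1.49 and -0.94 in P30 cells 1 to 5, against -0.82, -0.25, 0.07, 1.42 and -0.65 in P6 cells 1 to 5. It averaged -0.60 ± 1.21 at P30 and -0.05 ± 0.89 at P6, a difference of -0.56. Gbe1, the branching enzyme, read -2.84, -1.83, -4.91, 4.73 and 3.48 in P30 cells 1 to 5, against 0.00, 0.83, -0.41, 0.59 and -2.48 in P6 cells 1 to 5. Its P30 cells split into 3 below and 2 above nearly all P6 cells, so the mean difference of 0.02 describes no cell. It was -1.83 with medians over cells and 2.87 with ratios of arithmetic means, past the size rule in opposite directions. Ugp2, which makes UDP-glucose, had a mean higher at P30 by 0.68, with all 5 of its probe sets between 0.53 and 0.92. Its cells overlapped. Of the P30 cells 2 lay above every P6 cell, while P30 cells 2 and 5, at -0.33 and -0.59, lay below the P6 median of -0.04. Gyg, the primer protein glycogenin, differed by -0.06.

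**Figure D4:**
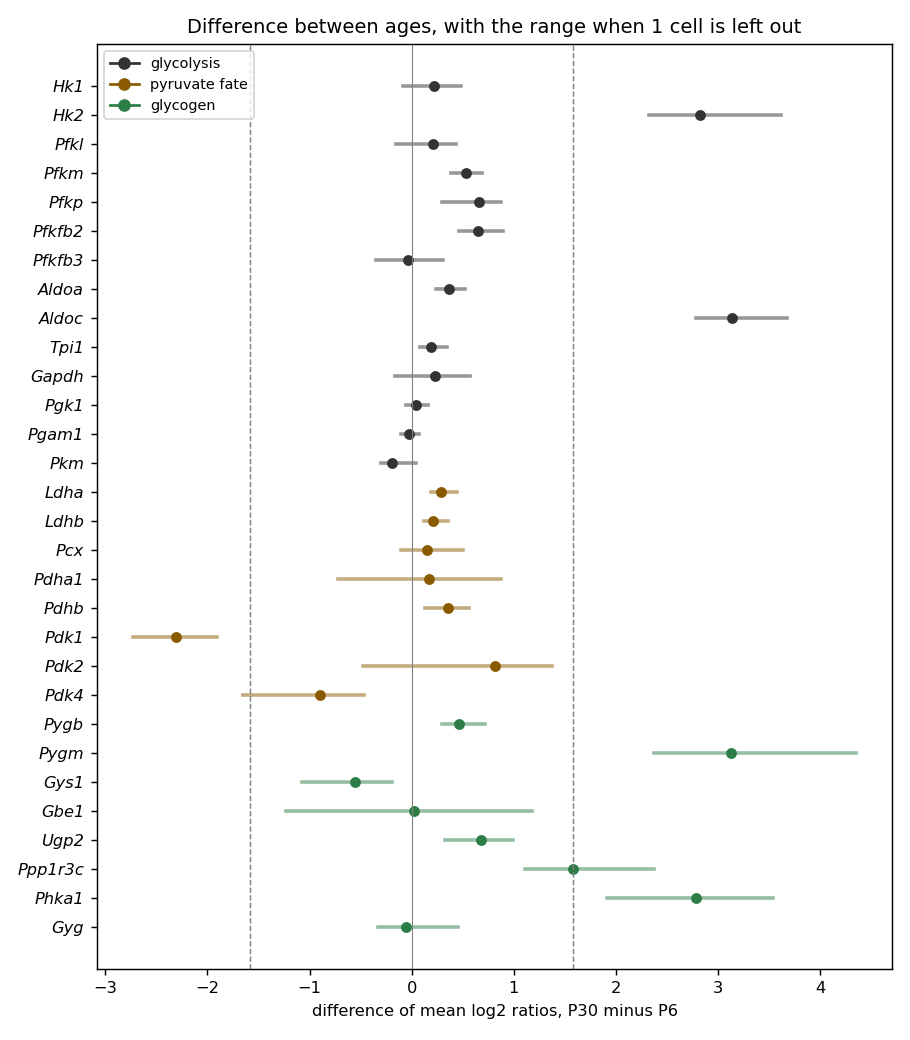
Difference of mean log2 ratios, P30 minus P6 (horizontal axis, positive means higher at P30), for the 30 measured members, with bars giving the range when each cell is left out in turn and dashed lines at the 3-fold rule. Hk2, Aldoc, Pygm and Phka1 stay right of the upper rule in every case and Pdk1 stays left of the lower one.

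Across all 11 enzyme contrasts taken within a cell the cells of the ages overlapped. Besides the contrasts given above, Pfkm minus Pfkl differed by 0.33 between the ages, Pfkp minus Pfkl by 0.45, Pfkfb3 minus Pfkfb2 by -0.68, Pdk4 minus Pdk1 by 1.41, Pcx minus Pdha1 by -0.02 and Gbe1 minus Gys1 by 0.58. The 4 that exceeded the size rule were Pdk2 minus Pdk1, Aldoc minus Aldoa, Pygm minus Pygb and Hk2 minus Hk1. The first of them fell inside the rule, at 1.43, without P6 cell 3, where Pdk2 stood at the floor of 0.01, and at 1.30 with ratios of arithmetic means.

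**Figure D5:**
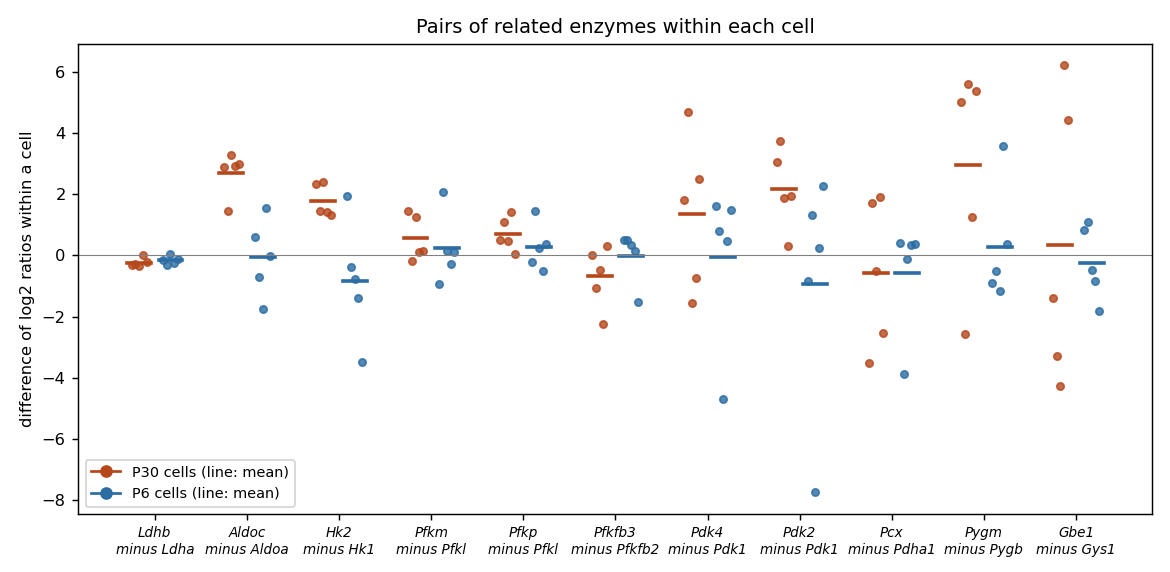
Difference of log2 ratios between 2 related genes within each cell (vertical axis) for 11 gene pairs, P30 cells in orange left of P6 cells in blue, with lines at the means. Ldhb minus Ldha is almost flat, and Aldoc minus Aldoa separates 4 of the 5 P30 cells from the P6 cells.

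The neighbouring genes of the same pathways, taken from lists of 61 genes of which 55 were measured, put the members in context. Of these 55 genes 7 were over 3-fold higher at P30 and 4 over 3-fold higher at P6, against the 4.93% and 9.39% of all genes given above, and their median difference was 0.05. Glycogen held most of them, with 5 higher at P30 and 2 higher at P6 among its 20 measured genes. Glycolysis had 2 higher at P30 and 1 higher at P6 among 17, and pyruvate metabolism had 1 higher at P6 among 18. Of these genes past the rule, only Pgm1 and Gaa were read by more than 1 probe set.

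The widest difference belonged to Nhlrc1, the ubiquitin ligase malin that is mutated in Lafora disease, in which abnormal glycogen builds up. It read 7.97, 7.38, 7.06, 0.12 and 7.16 in P30 cells 1 to 5, against 0.64, -1.19, -1.16, 1.62 and -1.91 in P6 cells 1 to 5, a difference of 6.34. P30 cell 4 lay among the P6 cells, and the other 4 P30 cells lay far above them. Epm2a, whose product laforin acts with malin, averaged 0.26 ± 0.90 at P30 and -0.23 ± 0.91 at P6. Ppp1r3d, another glycogen-targeting subunit of protein phosphatase, read 4.34, 4.64, 6.44, 4.01 and 2.17 in P30 cells 1 to 5, against -2.12, 2.60, 0.53, -0.44 and 0.00 in P6 cells 1 to 5, a difference of 4.21 with P30 cell 5 below P6 cell 2.

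A further 3 glycogen genes were over 3-fold higher at P30. Pgm1, a phosphoglucomutase, differed by 2.34, Phkb, the beta subunit of phosphorylase kinase, by 1.87, and Gaa, the lysosomal glucosidase that degrades glycogen, by 1.80. Pgm1 was inside the rule without cell 5 of both ages (1.49) and with medians over cells (0.88). Phkb and Gaa both fell inside the rule with spike scaling, a floor of 0.1, medians over cells and ratios of arithmetic means. They also did so without P6 cell 4, where the differences were 0.87 for Phkb and 0.69 for Gaa. Gaa fell inside it as well without P30 cell 1, P30 cell 2 or P6 cell 5. On the other side, Phkg2, a catalytic subunit of phosphorylase kinase, was lower at P30 by -2.58, and Gsk3a, a kinase that inhibits glycogen synthase, by -2.66.

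In the wider glycolysis list Gapdhs, the dehydrogenase of sperm, was the 1 of 55 genes in which all P30 cells lay above all P6 cells, beside 1.41% of all genes. It read 3.85, 2.58, 3.10, 3.18 and 2.25 in P30 cells 1 to 5, against -1.03, -0.04, -0.15, 1.22 and 0.04 in P6 cells 1 to 5, a difference of 2.98. Pfkfb4, a further enzyme of fructose 2,6-bisphosphate, was higher at P30 by 2.54, and Fbp1, the fructose bisphosphatase of gluconeogenesis, was lower at P30 by -1.94, or by -1.57, inside the rule, without P6 cell 3. Me3, a mitochondrial malic enzyme, was lower at P30 by -2.25. But this rested on P6 cell 1 at 6.16, and without that cell the difference was -0.64.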

How the data were processed

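Single-cell cDNA of 10 cells (5 P30, 5 P6) was hybridised to 1 array each. The deposited values are linear ratios. According to the methods, the authors ran RMA in GeneSpring GX 7.3, set values under 0.01 to 0.01, scaled each array to its median and each probe set to a median over samples. The methods give that median as one over all samples, whereas the median ratio of the P6 cells was 1 in 69.5% of complete probe sets, so the divisor used is unclear. The median ratio of an array ran from 0.726 to 0.934 at P30 and from 0.91 to 1 at P6. Arrays carry no read depth, and the number of cells limits the precision.

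Of 45101 probe sets, 43608 were complete over the 10 cells, and the 1493 others were blank in all P6 cells and left out. By the platform annotation 34958 probe sets had 1 gene symbol, 932 several and 9211 none, and only those of 1 gene were used (33964 complete). There were 10 values of 0, set to 0.01. Log2 ratios were averaged over the probe sets of a gene and then over cells. Because the labels tie no cell to an animal, no test was run. Members were described by the difference of means, a 3-fold rule on it (the methods' further criteria were not applied) and the overlap of cells, beside the share of all genes. Per-cell values were given for members past the rule, for the 2 largest differences of a step and for members of enzyme contrasts, except Pfkl, Pfkp, Pfkfb2, Pfkfb3, Pcx and Pdha1, which were given by their means or differences. Genes of the further lists were named where past the rule or without overlap. Members and lists were chosen with earlier results of these data known. Epm2a and Ppp1r3c were added for context after their values were seen.

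Alternatives were median and spike scaling, a floor of 0.1, medians over cells, ratios of arithmetic means, other probe set choices, a 2-fold rule and each cell left out. Omitting control probe sets or cell 5 of both ages was chosen after seeing the data. Promoters came from a RefSeq table for GRCm38.p6, in which all 32 genes had a window. Scripts were tested on simulated data and used SciPy 1.17.1, pandas 2.3.3, NumPy 2.4.6 and Matplotlib 3.10.9 under Python 3.11.15.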

Additional observations from a re-analysis of the deposited data

Results flagged for a closer look

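The values of 5 cells of an age were searched for 1 cell far from the rest, by Dixon's criterion with a critical value of 0.710, in 82 sets of values (members and enzyme contrasts at each age). Chance alone marks about 1 in 20 sets of independent, normally distributed values. Here 9 were marked, and among the 60 sets of members alone 5 were. The contrasts are made from the same members, so the sets are not independent. Whether more were marked than by chance was not tested.

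Ldhb was -0.45 in P30 cell 5, against 0.22 to 0.39 in the other P30 cells, and Gyg was -2.05 in the same cell, against 0.23 to 0.79. This is the cell with high endothelial markers and low spikes, and whether these account for the values was not tested. Pdha1 reached 3.28 in P6 cell 2, against -0.66 to 0.12 in the other P6 cells, and Pcx minus Pdha1 accordingly stood at -3.89 there, against -0.12 to 0.41. Pdhb fell to -1.08 in P6 cell 3, against -0.14 to 0.16, and Pdk2 to -6.64 in that cell, the floor of 0.01, against -1.31 to 0.75. Pdk4 minus Pdk1 was -4.71 in P6 cell 3, against 0.47 to 1.62. Aldoc minus Aldoa was 1.44 in P30 cell 2, against 2.90 to 3.28 in the other P30 cells. Pfkfb3 minus Pfkfb2 was -1.52 in P6 cell 5, against 0.15 to 0.49 in the other P6 cells.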

How the results depend on the processing

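No paired analysis was possible because the comparison has no test, each age being 1 sample, and no label ties a replicate number to an animal. Hk2, Aldoc, Pygm and Phka1 were over 3-fold higher at P30 in every 3-fold setting run. The probe set choices and the floor of 0.1 left Hk2 and Pygm, of 1 probe set each, unchanged. For Aldoc no setting read the probe set 1451461_a_at alone, which gave a difference of 0.40, inside the rule. The count of members over 3-fold higher at P6 was 3 with medians over cells (Pdk1, Pdk4 and Gbe1), beside 11.3% of all genes. It was 0 with ratios of arithmetic means, beside 10.9%, and Gbe1 was then over 3-fold higher at P30. The count with all P30 cells above all P6 cells was 1 of 30 with median scaling (Aldoc, beside 2.66% of all genes) and 1 without cell 5 of both ages (Pfkm, beside 3.95%). The count with all P6 cells above was 1 with spike scaling (beside 3.97%) and 1 without cell 5 of both ages (beside 3.83%), Pdk1 each time. Members with the higher mean at P30 numbered 13 with spike scaling, beside 33.4% of all genes. The further pathway genes over 3-fold higher at P6 numbered 8 of 55 with arithmetic means, beside 10.9% of all genes. Median scaling raised the median difference of all genes by 0.16, whereas spike scaling moved it by -0.30.

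With 1 cell left out, the members over 3-fold higher at P30 numbered 4 to 5 of 30, beside 5.10% to 5.66% of all genes. Those over 3-fold higher at P6 numbered 1 to 2 of 30 (Pdk4 added without P6 cell 3), beside 9.18% to 10.7%. Members with all cells apart numbered 0 to 1 of 30 in each direction, beside 1.88% to 3.29% of all genes with P30 on top and 2.81% to 3.26% with P6 on top. With P30 on top this was Aldoc without P30 cell 2 or P6 cell 4, Phka1 without P30 cell 4, Pfkm without P30 cell 5 and Hk2 without P6 cell 1. With P6 on top it was Pdk1 without P6 cell 5. Members with the higher mean at P30 numbered 20 to 24 of 30, beside 46.5% to 49.8% of all genes. The step medians were 0.20 to 0.44 (glycolysis), 0.08 to 0.40 (pyruvate fate) and 0.35 to 0.82 (glycogen). The further pathway genes over 3-fold numbered 6 to 9 of 55 higher at P30, beside 5.10% to 5.66% of all genes. At P6 they numbered 4 to 6 of 55, beside 9.18% to 10.7%. The cause of these shifts was not tested. Of the 5 members past the rule as deposited, none changed its direction in the settings run, and Pdk1 fell inside the rule with ratios of arithmetic means.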
